A study of Mus musculus with 6 samples.

Results

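The 9 genes described here are classical response genes and feedback regulators of TGF-beta signaling: Ski, Skil, Tgif1, Pmepa1, Tgfbi, Thbs1, Tagln, Acta2 and Snai2. They were chosen by name, as the rows of the deposited count table that carry these symbols, and make up 9 of its 24421 genes. All 9 were among the 16723 genes with enough counts to be tested. RNA was sequenced from alveolar type 2 (AT2) cells, the surfactant-secreting epithelial cells of the lung alveolus, sorted from adult mice by their fluorescent lineage label. The comparison asks how transcripts differ when a BMP receptor is kept active in these cells. Control mice (3 libraries) were Sftpc-CreERT2/+; R26-tdTomato/+, and caBmpr1a mice (3 libraries) were Sftpc-CreERT2/+; R26-tdTomato/R26-caBmpr1a. The product of the caBmpr1a allele is BMPR1a, a type I receptor for BMP, in a form that signals without ligand.

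Both alleles at the R26 locus are switched on by tamoxifen through a Cre recombinase expressed from the Sftpc gene. Sorting followed the tdTomato label, so a labelled cell need not have recombined its caBmpr1a allele as well. In both groups 1 mouse was 16 weeks old (control replicate 2 and caBmpr1a replicate 1), and the others were 12 weeks old. The libraries held 22909120, 24490233 and 27915100 counts in control replicates 1, 2 and 3. In caBmpr1a replicates 1, 2 and 3 they held 21554249, 24716504 and 28440227 counts. Levels are given as CPM, counts scaled by edgeR's TMM method to a common library total, and 3 counts correspond to between 0.0976 and 0.138 CPM, which covers counting error only.

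The labelled cell type was checked against its markers, all of which were detected. The most abundant of 10 AT2 markers was Sftpc, the gene of surfactant protein C, and the 10 summed to 165500, 150900 and 149300 CPM in control and 131500, 118200 and 107900 CPM in caBmpr1a libraries. None of the 10 was called different by edgeR (5 had an unadjusted p under 0.05, all lower in caBmpr1a) or limma-voom, and DESeq2 called Lyz2 lower. Their median log2 fold change was -0.43 (-0.31 in the 4 libraries described next). Of 6 BMP targets, Id1, Id3, Smad6, Smad9 and Atoh8 were called higher in caBmpr1a, with a median log2 fold change of 3.49 over the list (3.09 in those 4 libraries). The other target, Id2, was higher in every caBmpr1a library than in every control library. Its log2 fold change was 1.03 (adjusted p = 0.138 by edgeR), and DESeq2 called it higher. With 1 library left out in turn, Smad9 and Atoh8 were called in 6 of 6 fits, Id3 in 3, Id1 in 2 and Smad6 in 1 (without caBmpr1a 1).

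Control replicate 1 and caBmpr1a replicate 3 stood apart from the other 4 libraries. On the 4 genes Eif2s3y, Kdm5d, Uty and Ddx3y of the Y chromosome they had 176 and 146 CPM, with 0 in the others, and they lay together at one end of the first principal component, which held 49.3% of the variance. The fold changes of the 9 genes and the medians of the gene lists are therefore given over all 6 libraries and over the other 4 alone, which leaves 2 libraries in each group.

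TGF-beta ligands signal through paired receptor kinases that phosphorylate SMAD2 and SMAD3, while BMP receptors such as BMPR1a act mainly on SMAD1, SMAD5 and SMAD9. Both branches share SMAD4, and both are restrained by transcriptional corepressors and inhibitors, several of which are themselves induced by the signal. In the lung, TGF-beta is best known for driving matrix and contractile genes in mesenchymal cells and for restraining growth of epithelial cells.

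Ski was the one response gene called higher in caBmpr1a cells, and none was called lower. A call required a log2 fold change beyond 1 in either direction with an adjusted p under 0.05 (edgeR's quasi-likelihood test, adjusted over all 16723 genes by Benjamini-Hochberg). Over all tested genes, 0.227% were called higher and 0.012% lower (38 and 2 genes, against 119 and 25 by DESeq2). At an unadjusted p under 0.05 there were 2 members, Ski and Skil, both higher, against 4.62% of all genes higher and 5.05% lower. For 3 members, Ski, Skil and Tagln, every caBmpr1a library lay above every control library, which held for 7% of all genes. For no member did every caBmpr1a library lie below, which held for 10.1% of all genes, and in the other 6 the groups overlapped. DESeq2 called the same member, and limma-voom called none. The median log2 fold change of the 9 genes was 0.26 (0.067 in the 4 libraries), against -0.0096 over all tested genes, and 7 of 9 were positive against 48.8% of all genes. With 3 libraries against 3, an exact two-sided permutation test of a single gene cannot give a p below 0.1, so no gene was tested that way.

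**Figure D1:**
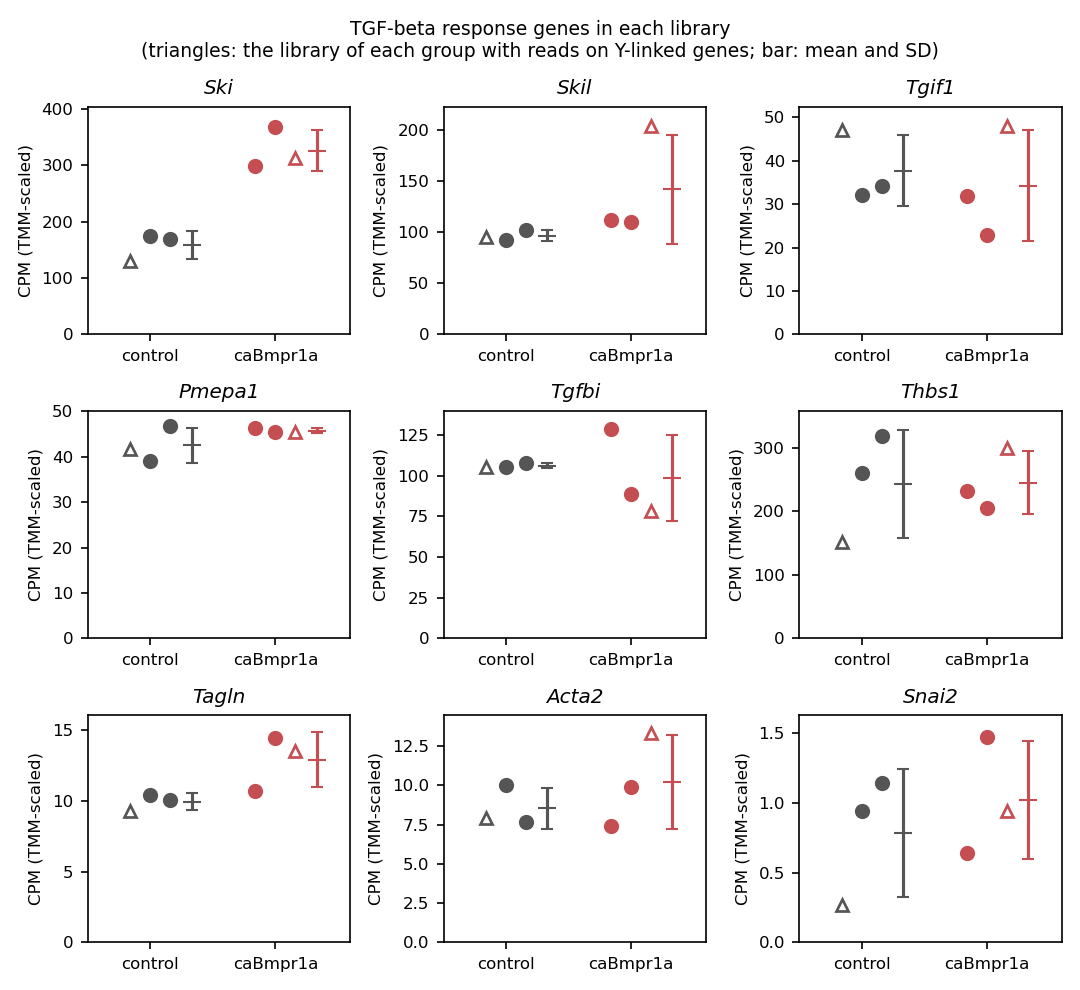
Level of each of the 9 genes in each library, in TMM-scaled CPM, with control in grey and caBmpr1a in red. Triangles mark the library of each group with reads on Y-linked genes, and the bar beside the points gives the group mean and SD; the Ski groups are separate (131 to 175 against 298 to 368 CPM), while those of Tgif1, Pmepa1, Tgfbi, Thbs1, Acta2 and Snai2 overlap.

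Among the nuclear corepressors, Ski encodes a protein that binds SMAD complexes on DNA and recruits histone deacetylase corepressors. Its gene lies at chr4:155154075-155222535 on the minus strand of mm10, in 7 exon blocks. Control libraries 1, 2 and 3 had 131, 175 and 169 CPM of Ski, and caBmpr1a libraries 1, 2 and 3 had 298, 368 and 313 CPM. The lowest caBmpr1a value was well above the highest control value, and control 1 was the lowest of all. The means were 158 ± 24.2 and 326 ± 36.7 CPM (SD, n = 3 each), a ratio of 2.06. On the log2 scale the fold change was 1.04 (SE 0.15, 95% interval 0.69 to 1.40, Benjamini-Hochberg adjusted p = 0.0486 by edgeR's quasi-likelihood test).

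Both thresholds were passed narrowly, and the size of the Ski difference was steadier than its call. In the 4 libraries without Y-linked reads edgeR gave a log2 fold change of 0.99 (adjusted p = 0.0185), past the threshold on p and just under 2-fold. Leaving out any 1 of the 6 libraries ended the call: without control 1, 2 or 3 the log2 fold change was 0.92, 1.11 or 1.09, and without caBmpr1a 1, 2 or 3 it was 1.13, 0.96 or 1.11. Their adjusted p from edgeR lay between 0.0858 and 0.314. Over all 18 alternatives the log2 fold change ranged from 0.92 to 1.17 and the adjusted p from 3.42e-06 (DESeq2) to 0.314.

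**Figure D2:**
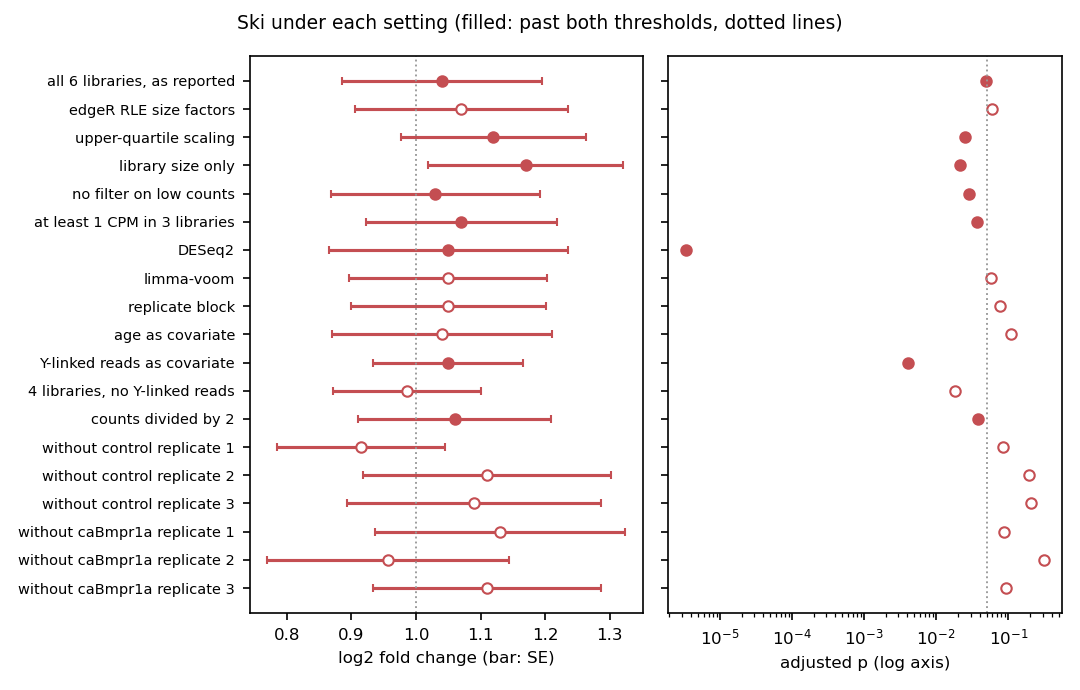
Log2 fold change of Ski with its standard error (left) and its adjusted p on a log axis (right) under each setting, with dotted lines at a log2 fold change of 1 and a p of 0.05. Filled points pass both thresholds; the fold change stays between 0.92 and 1.17 throughout, while 11 of 18 alternatives miss a threshold.

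RefSeq promoter windows were at hand for 4 of the 9 genes. Those of Ski, the member called, and of Tgfbi, a member with no call, are shown to let the start regions be compared. Each is the 187 bases from -250 to -64 relative to the RefSeq start, which end before the first GENCODE transcript of the gene, on GRCm38.p6 (the mm10 assembly), 5′ to 3′ on the gene's strand. Ski is chr4:155222599-155222785 on the minus strand, and Tgfbi is chr13:56609336-56609522 on the plus strand. Capitals mark the SMAD-binding core GTCT, searched on both strands as GTCT or AGAC, and the GC-rich SMAD element GGCGCC, which reads the same on both strands. These letters do not overlap.
Ski: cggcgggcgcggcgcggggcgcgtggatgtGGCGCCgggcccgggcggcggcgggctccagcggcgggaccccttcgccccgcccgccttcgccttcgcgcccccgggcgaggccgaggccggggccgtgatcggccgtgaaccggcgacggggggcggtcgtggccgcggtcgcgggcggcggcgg
Tgfbi: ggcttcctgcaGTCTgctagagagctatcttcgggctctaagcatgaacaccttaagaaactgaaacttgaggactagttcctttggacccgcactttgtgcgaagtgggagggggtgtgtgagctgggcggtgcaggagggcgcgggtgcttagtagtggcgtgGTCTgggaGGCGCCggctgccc
The Ski window held GGCGCC once, starting at -220, and no GTCT or AGAC, and its GC content was 86.6%. The Tgfbi window held GTCT at -239 and -85 and GGCGCC at -77, with a GC content of 59.4%. Among 32851 promoter windows of the same length and position, 74.8% held GTCT or AGAC and 6.49% held GGCGCC. A match is a description of letters and not of a bound site.

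Skil encodes SnoN, the close relative of Ski, which also represses SMAD complexes and is itself a rapid target of TGF-beta. The gene lies at chr3:31095058-31122923 on the plus strand. Skil stood at 95.1, 92.8 and 103 CPM in control libraries 1, 2 and 3 and at 112, 110.2 and 204 CPM in caBmpr1a libraries 1, 2 and 3. The groups did not overlap, but caBmpr1a 1 and 2 lay close above the controls and caBmpr1a 3 far above all others. In edgeR the log2 fold change was 0.55 (SE 0.23, 95% interval 0.020 to 1.09, adjusted p = 0.499 by edgeR). It was 0.24 without caBmpr1a 3 and 0.22 (SE 0.086) in the 4 libraries, so that most of the difference rested on 1 library.

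Tgif1 encodes a homeodomain corepressor that binds SMAD2 and SMAD3. It lies at chr17:70844205-70853532 on the minus strand. The control values were 47.0, 32.0 and 34.2 CPM, and the caBmpr1a values were 31.95, 22.8 and 48.0 CPM. The highest library of each group was the one with Y-linked reads, and the groups overlapped throughout. The log2 fold change between groups was -0.14 (SE 0.27, 95% interval -0.75 to 0.47, adjusted p = 0.893 by edgeR). It changed sign without control 1 (0.044) or without caBmpr1a 2 (0.099) and was -0.25 in the 4 libraries. With both terms in the fit, Tgif1 was higher in the libraries with Y-linked reads by a log2 of 0.66 (SE 0.14, adjusted p = 0.0236 by edgeR), the one member to pass for that term, as did 12.8% of all tested genes.

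Pmepa1 encodes a membrane protein that holds receptor-regulated SMADs away from the receptor and so dampens the signal that induces it. It lies at chr2:173224465-173276533 on the minus strand. Its level was 41.7, 39.0 and 46.7 CPM in control and 46.4, 45.35 and 45.37 CPM in caBmpr1a libraries. All 3 caBmpr1a values fell inside the control range, with a highest-to-lowest ratio of 1.20 over the 6 libraries, the smallest of the 9 genes. Between groups the log2 fold change was 0.11 (SE 0.11, adjusted p = 0.786 by edgeR), and it was 0.13 in the 4 libraries. Its 95% interval, -0.15 to 0.36, was the narrowest of the 9 and leaves out a 2-fold difference in either direction.

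A list of 12 further SMAD pathway inhibitors and corepressor partners had no called gene in edgeR or limma-voom, with a median log2 fold change of 0.061 (0.058 in the 4 libraries). Of the 12, 2 had an unadjusted p under 0.05, Smad7 among them. Smad7, the inhibitory SMAD that blocks TGF-beta receptors, stood at 82.9, 63.0 and 65.8 CPM in control and 126, 165 and 240.4 CPM in caBmpr1a libraries. Its groups were separate, and its log2 fold change was 1.33 (SE 0.23, adjusted p = 0.101 by edgeR), and it was called by DESeq2 and by edgeR in the 4 libraries. The log2 fold changes of Tgif2 and Bambi were -0.52 and 0.19, and that of Ncor1, the most abundant gene of the list, was -0.15.

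Of the genes for secreted matrix proteins, Tgfbi encodes a fasciclin-domain adhesion protein named for its induction by TGF-beta. It lies at chr13:56609603-56639339 on the plus strand. Control libraries had 105.5, 105.1 and 108 CPM, and caBmpr1a libraries had 129, 88.7 and 78.3 CPM. The controls were nearly equal, while caBmpr1a 1 lay above all of them and caBmpr1a 2 and 3 lay below. The SD was 1.56 CPM in control and 26.6 CPM in caBmpr1a, and the log2 fold change was -0.11 (SE 0.18, 95% interval -0.52 to 0.30, adjusted p = 0.869 by edgeR). Its sign changed without caBmpr1a 3 (0.069), in the 4 libraries (0.058) and with scaling by library size only (0.014).

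Thbs1 encodes thrombospondin-1, a matricellular protein that can release TGF-beta from its latent complex. It lies at chr2:118111922-118127133 on the plus strand. Its values were 152, 259.7 and 319 CPM in control and 231, 204.5 and 300.1 CPM in caBmpr1a libraries. The caBmpr1a values all fell inside the control range, which control 1 set at its low end. Its log2 fold change was 0.012 (SE 0.26, 95% interval -0.59 to 0.62, adjusted p = 0.994 by edgeR). Its sign changed without control 1 (-0.24), without caBmpr1a 3 (-0.13) and without the filter on low counts (-0.011). In the 4 libraries it was -0.38 (SE 0.12, adjusted p = 0.221 by edgeR, within a range of 0.221 to 0.996 over all alternatives).

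The pair of libraries with Y-linked reads and the other 4 thus gave values of opposite sign for Thbs1, Tgfbi and Tgif1. For Tgif1 the value of the pair, and for Tgfbi that of the 4 libraries (SE 0.15), lay near 0. The log2 ratio of caBmpr1a 3 to control 1 was 0.98 for Thbs1 and 1.10 for Skil, against -0.38 and 0.22 in the 4 libraries. It was -0.43 for Tgfbi and 0.029 for Tgif1, against 0.058 and -0.25. For Acta2 and Snai2 it was 0.75 and 1.55, against 0.0028 and 0.067. For Ski, Pmepa1 and Tagln it was 1.26, 0.12 and 0.53, against 0.99, 0.13 and 0.33. The pair holds 1 library of each group, so its own ratio has no error. An interaction term of group with the pair, a choice made after these values were seen, takes its spread from the other 4 libraries alone and restates the ratios above. It passed an adjusted p of 0.05 for no member (0.0782 for Thbs1 and 0.0826 for Skil by edgeR) and for 0.0658% of all tested genes. It was positive with an unadjusted p under 0.05 for these 2 members and for 6.88% of all tested genes. Since the term was chosen after the ratios it restates, it cannot decide whether the pair and the 4 differ.

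**Figure D3:**
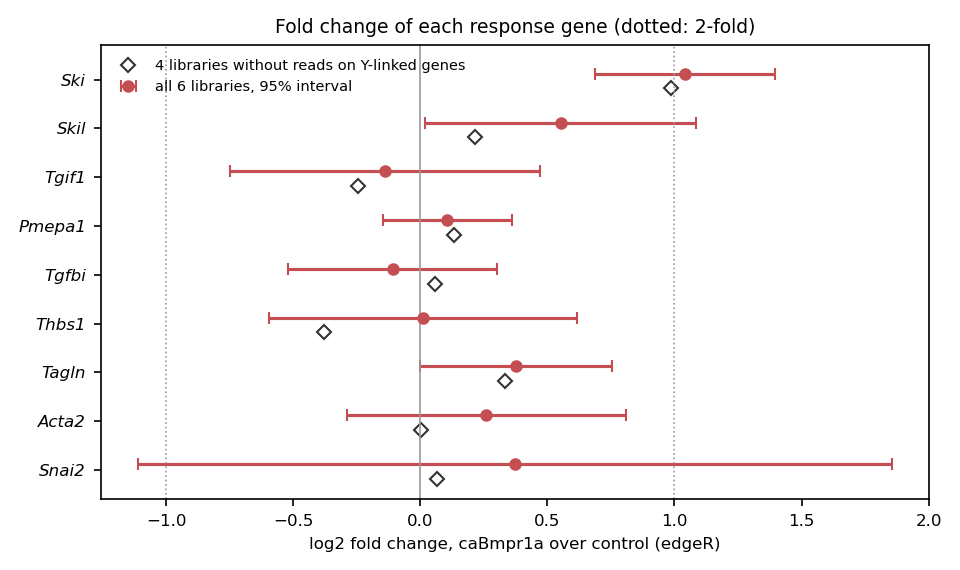
Log2 fold change of each gene, caBmpr1a over control, from edgeR over all 6 libraries with its 95% interval (red) and over the 4 that lack Y-linked reads (open diamonds, no error bar). The intervals of Ski (0.69 to 1.40) and Skil (0.020 to 1.09) lie above 0, and the diamonds of Tgfbi and Thbs1 lie on the other side of 0 from the red points.

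Relatives of these matrix genes in the thrombospondin and fasciclin families, 6 of 7 tested (all but Thbs4), had no called gene in edgeR, DESeq2 or limma-voom, and 1, Stab1, had an unadjusted p under 0.05. Their median log2 fold change was 0.21 over all libraries and 0.080 in the 4, where 5 could be tested. With limma-voom the median was 0.51, and with the replicate block it was 0.45. Over all libraries the log2 fold change was 0.94 for Postn, 0.72 for Stab1, 0.29 for Stab2 and 0.13 for Comp, and -0.11 for Thbs3, the most abundant. Of 18 other early TGF-beta response genes, 1 was called higher and none lower, with a median of 0.17 and 6 genes at an unadjusted p under 0.05, of which Angptl4 was lower. In the 4 libraries the median was 0.022, with 9 of the 18 positive against 12 over all libraries. The called gene was Tgfb1, a ligand that induces its own transcription, at 44.7, 44.5 and 43.6 CPM in control and 83.9, 90.0 and 109.6 CPM in caBmpr1a libraries. Its log2 fold change was 1.09 (SE 0.13, adjusted p = 0.0172 by edgeR). It was called in the 4 libraries (1.02). Of the fits with 1 library left out, it was called without caBmpr1a 1 or 3 and not without caBmpr1a 2 (1.14) or without control 1 (1.10), 2 (1.09) or 3 (1.08).

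Tagln encodes transgelin, an actin-binding protein of contractile cells and a direct SMAD3 target in them. It lies at chr9:45929628-45936058 on the minus strand. Its control values were 9.33, 10.5 and 10.1 CPM, and its caBmpr1a values were 10.7, 14.5 and 13.5 CPM. All caBmpr1a libraries lay above all controls, although caBmpr1a 1 exceeded control 2 only slightly. For Tagln the log2 fold change was 0.38 (SE 0.17, 95% interval -0.0026 to 0.75, adjusted p = 0.52 by edgeR), with 0.33 in the 4 libraries. Tagln shares 95 of its 1586 exon bases with Pcsk7, and since reads were counted without regard to strand and left out where genes overlap, its level is uncertain to that extent. No other member shared exon bases with another gene of the table.

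Acta2 encodes smooth muscle alpha-actin, the usual marker of myofibroblasts. It lies at chr19:34240336-34255373 on the minus strand. The values were 7.89, 10.03 and 7.69 CPM in control and 7.38, 9.89 and 13.3 CPM in caBmpr1a libraries. The groups overlapped, and both the lowest and the highest value of all belonged to caBmpr1a. The log2 fold change was 0.26 (SE 0.24, 95% interval -0.29 to 0.81, adjusted p = 0.751 by edgeR), but 0.058 without caBmpr1a 3 and 0.0028 in the 4 libraries. Actin coding sequences are nearly alike between paralogs, so reads of Acta2 and of the cytoplasmic actin Actb could be split or lost in the authors' counting, which makes the level of Acta2 uncertain.

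None of 20 other actin and contractile genes was called by edgeR, DESeq2 or limma-voom, and 2, Cnn3 and Myl9, had an unadjusted p under 0.05. The median log2 fold change of the list was 0.14 (0.061 in the 4 libraries). The values were 0.98 for Acta1, 0.86 for Myl9, 0.77 for Cnn3 and 0.70 for Tagln3. Actb, the most abundant, had 1562, 1384 and 1457 CPM in control and 1226, 1344 and 1723 CPM in caBmpr1a libraries, with a log2 fold change of -0.037.

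Snai2 encodes Slug, a zinc finger repressor that takes part in epithelial-mesenchymal transition (EMT). It lies at chr16:14705859-14709382 on the plus strand, in 3 exon blocks. It had only 6, 22 and 30 counts in control and 14, 38 and 29 counts in caBmpr1a libraries, or 0.269, 0.943 and 1.14 CPM against 0.642, 1.47 and 0.944 CPM. Control 1 was the lowest, and the other 5 libraries were mixed between groups. The log2 fold change was 0.37 (SE 0.65, adjusted p = 0.877 by edgeR), with -0.035 without control 1 and 0.067 in the 4 libraries. The 95% interval, -1.11 to 1.85, holds a 2-fold difference in both directions, so these libraries neither show nor leave out a change of that size.

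Among 10 further EMT regulators and markers, 8 were tested (Twist1 and Twist2 were not), and none was called by edgeR, DESeq2 or limma-voom. Their median log2 fold change was 0.48 over all libraries and 0.24 in the 4. Vim and Fn1 had an unadjusted p under 0.05. Vim, the intermediate filament of mesenchymal cells, had 60.3, 74.4 and 63.5 CPM in control and 115, 113 and 97.0 CPM in caBmpr1a libraries, with separate groups and a log2 fold change of 0.72 (SE 0.13, adjusted p = 0.103 by edgeR). That of Fn1 was 0.89, of Zeb2 0.53 and of Cdh2 0.51, and that of Cdh1, the epithelial cadherin and the most abundant gene of the list, was -0.015.

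Levels of different genes were compared per kilobase of exon. In control libraries the order was Thbs1 (41.9 ± 14.6 CPM per kb), Tgfbi (39.7 ± 0.587), Ski (28.98 ± 4.42), Tgif1 (14.1 ± 3.03), Skil (13.7 ± 0.739), Pmepa1 (9.37 ± 0.864), Tagln (6.28 ± 0.365), Acta2 (3.32 ± 0.504) and Snai2 (0.39 ± 0.228; SD, n = 3). Thbs1 and Tgfbi, and Tgif1 and Skil, overlapped between libraries, and all other neighbours were separate. The range of Thbs1 (26.1 to 54.9) also overlapped that of Ski (23.9 to 32.0), which is not its neighbour in this order. In caBmpr1a libraries Ski stood first at 59.7 ± 6.72 CPM per kb, clear of Thbs1 (42.3 ± 8.5) and Tgfbi (36.8 ± 9.94), whose ranges overlapped. Skil (20.1 ± 7.59), Tgif1 (12.8 ± 4.76) and Pmepa1 (10.1 ± 0.131) followed, each overlapping the next. Tagln (8.14 ± 1.23), Acta2 (3.96 ± 1.16) and Snai2 (0.507 ± 0.209) kept the last places by their means. They were separate from each other and from Pmepa1, but the range of Tagln (6.77 to 9.12) overlapped that of Tgif1 (8.53 to 17.9).

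**Figure D4:**
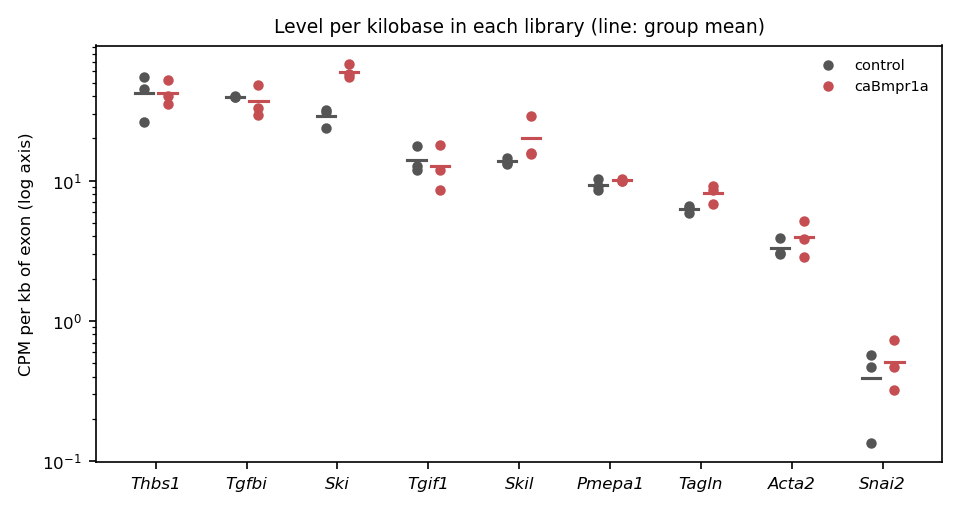
Level of each gene per kilobase of exon in each library on a log axis, ordered by the control mean, with a line at each group mean (control grey, caBmpr1a red). Ski moves from the third place in control (28.98 CPM per kb) to the first in caBmpr1a (59.7 CPM per kb), and Snai2 is lowest in both.

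The genes of most similar profile were sought for the 8 members with a mean of at least 1 CPM. The measure was the root mean square (RMS) difference of log2 CPM over the 6 libraries, after each gene was centred on its own mean, among 14583 tested genes with a mean of at least 1 CPM. The profile nearest to Ski was that of Hpse, a heparan sulfate-cleaving enzyme (RMS 0.0868), with 2.33, 3.21 and 3.50 CPM in control and 5.55, 7.25 and 6.67 CPM in caBmpr1a libraries. Adam10, a membrane protease, came next (RMS 0.109). Nearest to Skil were Mknk1 (RMS 0.0556) and the clock gene Per1 (RMS 0.0911), and the latter, like Skil, was highest in caBmpr1a 3, at 511 CPM against 198 to 255 CPM elsewhere.

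For the other members the nearest profiles were Pkd1l3 (RMS 0.0391) and Tssc4 (0.0805) for Tgif1, and Gnptg (0.024) and Dhrs4 (0.0306) for Pmepa1. They were Igsf8 (0.0629) and Capg (0.0693) for Tgfbi, and Mdn1 (0.119) and Dusp5 (0.124) for Thbs1. Tagln was nearest to Rnaset2b (0.0309) and Dock6 (0.0484), and Acta2 to Socs3 (0.0842) and Sgtb (0.0903). Among the members themselves, the profiles of Tagln and Acta2 were closest (RMS 0.208) and those of Tgif1 and Snai2 farthest apart (RMS 0.967). No pair of members was as close as any member was to its nearest gene of the table.

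Sorted cells can carry RNA of other cell types, and several response genes are abundant in mesenchymal cells. All 10 smooth muscle and pericyte markers were detected, the most abundant being Notch3. They summed to 40.9, 54.4 and 45.9 CPM in control and 52.5, 70.2 and 83.8 CPM in caBmpr1a libraries, and like Tagln and Acta2 the sum was lower in caBmpr1a 1 than in caBmpr1a 2 and 3. All 10 had a positive log2 fold change, with a median of 0.57, and none was called (2 at an unadjusted p under 0.05). In the 4 libraries the median was 0.445, with 9 of 10 positive. The 10 fibroblast markers, led by Inmt, summed to 243.9, 360.3 and 291.7 CPM in control and 415.6, 532.5 and 454.4 CPM in caBmpr1a libraries. These sums did not overlap between groups, and all 10 had a positive log2 fold change (median 0.61, and 0.59 in the 4 libraries), with none called and 5 at an unadjusted p under 0.05. The part of these cells in the values of Tagln, Acta2, Thbs1, Snai2 and Ski was not tested. In sorted bulk RNA, fewer cells of a type and less RNA per cell cannot be told apart.

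**Figure D5:**
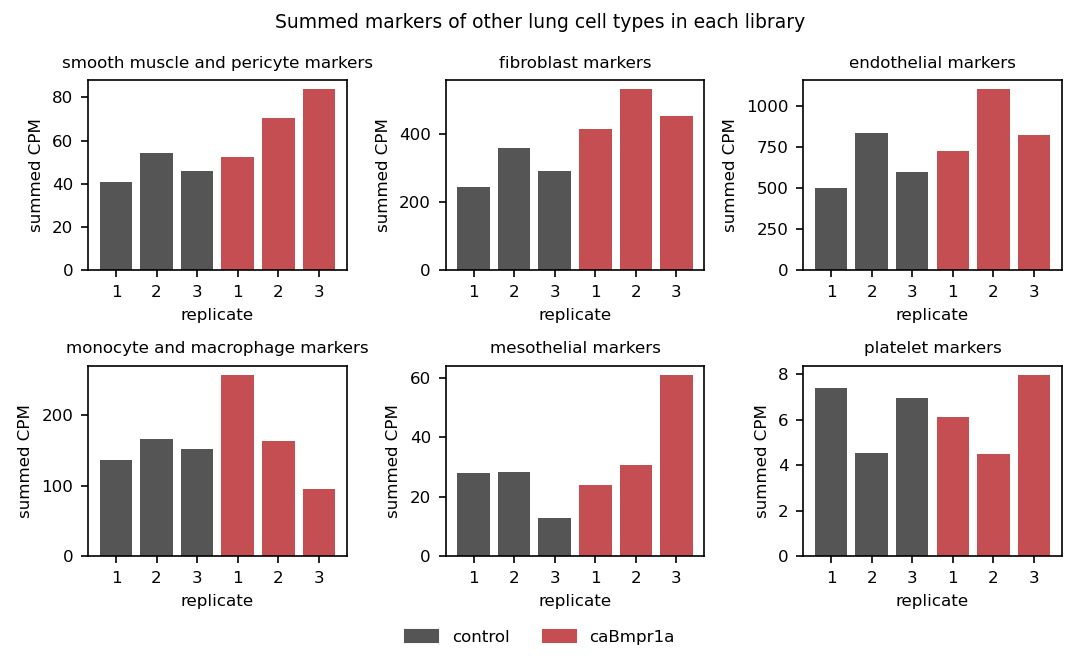
Summed TMM-scaled CPM of the markers of 6 other lung cell types in each library (control grey, caBmpr1a red, replicate number below each bar). The fibroblast sums are higher in every caBmpr1a library (415.6 to 532.5 CPM) than in every control library (243.9 to 360.3 CPM), while the other sums overlap.

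Endothelial markers, 12 in all and led by Esam, summed to 500.4, 838 and 600.2 CPM in control and 726.7, 1106 and 828.5 CPM in caBmpr1a libraries (median log2 fold change 0.60, 0 called, 6 at an unadjusted p under 0.05). In the 4 libraries their median was 0.51, with 3 at an unadjusted p under 0.05. The 12 monocyte and macrophage markers, led by Cd14, summed to 137, 167 and 152 CPM in control and 258, 164 and 95.1 CPM in caBmpr1a libraries (median 0.75, 0 called, 1 at an unadjusted p under 0.05). In the 4 libraries the macrophage median was 1.02, and 9 of the 12 had an unadjusted p under 0.05, with 0 called. Like Tgfbi, which macrophages express strongly, the macrophage sum was highest in caBmpr1a 1 and lowest in caBmpr1a 3. The single markers were divided in caBmpr1a 3. There Cd14, Chil3, Csf1r and Cd68 lay below every control library, and Adgre1, Itgam, Ccr2 and Siglecf lay above every control library. The remaining markers lay within the control range. The part of macrophages in the Tgfbi values was not tested. The 5 mesothelial markers, led by Msln, summed to 27.8, 28.4 and 12.9 CPM in control and 24.1, 30.6 and 61.0 CPM in caBmpr1a libraries (median 0.60, and 0.446 in the 4 libraries, 0 called, 1 at an unadjusted p under 0.05). Platelets carry Thbs1 transcripts, and their 5 markers, led by Itga2b, summed to 7.40, 4.54 and 6.97 CPM in control and 6.10, 4.50 and 7.97 CPM in caBmpr1a libraries. Of the 5, 2 could be tested, with a median of -0.11 (0.027 when scaled by library size only, -0.18 in the 4 libraries) and none called. The part of platelets in the Thbs1 values was not tested. In all 4 of these lists DESeq2 and limma-voom called no gene either, nor in the smooth muscle and fibroblast lists.

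Of 8 airway markers, led by Scgb1a1, Krt5 was at 0 in all 6 libraries, which allows up to 0.138 CPM in the library with the highest limit. Tppp3 was called higher (log2 fold change 1.85, adjusted p = 0.0165 by edgeR, and 1.66 in the 4 libraries), the only call among the 7 tested. The median of these 7 was 0.17 (0.13 in the 4 libraries, 0.46 with limma-voom and 0.40 with the replicate block). Besides Tppp3, only Cyp2f2 had an unadjusted p under 0.05, and it was lower, with 213.9, 173 and 192 CPM in control and 134, 139 and 127.5 CPM in caBmpr1a libraries (log2 fold change -0.53, adjusted p = 0.19 by edgeR). Without caBmpr1a 2 or any 1 control Tppp3 was not called, at a log2 fold change of 1.82 to 1.90. The sum of the 8 was 824.5, 916.4 and 723.3 CPM in control and 839.7, 1176 and 1220.0 CPM in caBmpr1a libraries. The 10 AT1 markers, led by Ager, summed to 3351, 3143 and 2522 CPM in control and 2903, 3302 and 2716 CPM in caBmpr1a libraries (median 0.33, and 0.44 in the 4 libraries, none called by edgeR, DESeq2 or limma-voom, 2 at an unadjusted p under 0.05, Rtkn2 higher and Aqp5 lower).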

How the data were processed

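Poly(A) RNA of sorted cells was sequenced as paired reads. The authors trimmed reads with PRINSEQ and Trimmomatic, mapped them to mm10 with Hisat2, removed duplicates with SAMtools and deposited raw counts per gene from featureCounts 1.5.3, taken over exons. Per the file header no option for strand, read pairs or overlapping genes was set. The methods speak of fragments, but 56.9% to 60.8% of counts from 1 to 20 were even numbers, so mates may have been counted separately, and counts divided by 2 were an alternative. Replicates of a group differed by more than sampling noise.

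Counts were tested in R 4.3.3 with edgeR 4.0.16, using TMM scaling and the default filter on expression at a count of 10. The quasi-likelihood test was used, with p-values adjusted over all tested genes by Benjamini-Hochberg. The SE is the log2 fold change divided by the square root of F. DESeq2 1.42.0, limma-voom (limma 3.58.1), other scalings and filters, covariates and left-out libraries were alternatives. Profiles used log2 CPM with a prior count of 2. Members and gene lists were chosen with earlier results of these data known. Named genes were all 9 members, called genes of each list (or, with none called, up to 4 with the largest absolute log2 fold change and the most abundant), the most abundant, absent and called markers, and the 2 nearest profiles of each member. One gene under this rule is not reported here. Genes named beyond this rule were chosen after their values were seen. They were Ddx3y, Uty, Kdm5d, Eif2s3y, Lyz2, Angptl4, Cyp2f2, Rtkn2, Aqp5 and Pcsk7, and also Id2, Chil3, Csf1r, Cd68, Adgre1, Itgam, Ccr2 and Siglecf. Promoter sequences are from RefSeq.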

Additional observations from a re-analysis of the deposited data

How the results depend on the processing

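Ski kept its direction under all 18 alternatives but fell short of a threshold in 11. Its log2 fold change was then 1.07 with RLE size factors, 1.05 with limma-voom, 1.05 with the replicate block, 1.04 with age as a covariate and 0.99 in the 4 libraries without Y-linked reads, and from 0.92 to 1.13 with 1 library left out. The number of members called was 0 in each of these fits. Signs changed for Tgfbi with library size only (0.014), for Thbs1 without the filter on low counts (-0.011), and in the 4 libraries for Tgfbi (0.058) and Thbs1 (-0.38). With 1 library left out, values ranged from -0.32 to 0.069 for Tgfbi, -0.42 to 0.099 for Tgif1, -0.24 to 0.25 for Thbs1 and -0.035 to 0.74 for Snai2. Over all tested genes 40 were called (38 higher and 2 lower), against 62 without the filter (57 and 5), 144 with DESeq2 (119 and 25), 26 with limma-voom (25 and 1), 142 with Y-linked reads as a covariate (108 and 34), 56 in the 4 libraries (48 and 8) and from 6 to 63 with 1 library left out (0 to 4 lower). The causes were not tested, but leaving out a library also lowers the number of samples. The replicate numbers only name mice, with correlations of deviations of -0.24, 0.20 and -0.53 for replicates 1, 2 and 3. With the replicate block 41 genes were called (29 of the 40), and not Ski (adjusted p = 0.0768 by edgeR, within 3.42e-06 to 0.314 over all alternatives) or Tgfb1 (log2 fold change 1.09, adjusted p = 0.0629 by edgeR, within 3.35e-10 to 0.13). Smad6 was not called with RLE size factors, limma-voom or age (adjusted p = 0.0545, 0.0567 and 0.0988, within 1.34e-06 to 0.216). Scaling by library size only moved the median log2 fold change of all genes to 0.12. Snai2 had 6 to 38 counts a library and an SE of 0.65, the widest of the 9, and the shares of depth and of the spread between libraries in it were not tested.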
